A study of Mus musculus with 7 samples.

Results

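The 8 myogenic transcription factors *Myod1*, *Myog*, *Myf6*, *Mef2a*, *Mef2c*, *Mef2d*, *Six4* and *Pax7* were examined together with the neonatal myosin heavy chain gene *Myh8* in the tibialis anterior (TA) muscle of mice lacking fast myosin-binding protein C. The 9 genes were chosen by symbol among those present in the deposited table of 12239 genes, and all 9 were tested. *Myh8* was included with its fall in these data already known, so that its own result is not a separate finding. TA is a fast-twitch muscle at the front of the lower hind leg. It was taken from 4 wild-type (WT) and 3 C2-/- mice, all males of the FVBN background, 5 to 6 months old by the sample labels, and RNA sequencing was performed on each. For young TA muscle the paper's methods give 3 to 6 months, and a supplementary legend gives 3 to 5 months. Sex and background were taken from the paper. In C2-/- mice a Neo cassette flanked by LoxP sites replaced exons 2 to 22 of *Mybpc2*, the gene of fast myosin-binding protein C, in all cells. No treatment is named for either group. The titles number the libraries without stating that each came from its own animal, and p-values measure the spread between these samples.

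Muscle cells are specified and differentiated by 4 basic helix-loop-helix (bHLH) proteins, MyoD, Myf5, myogenin and Mrf4 (encoded by *Myf6*), which bind the E-box sequence with a partner E protein. The MEF2 proteins bind an A/T-rich site and act with them on genes of the contractile apparatus. Satellite cells, the resident stem cells that rebuild damaged fibres, carry Pax7, and fibres that are being rebuilt transiently express developmental myosins such as *Myh8*. In resting adult fibres Mrf4 is the prevailing factor of the bHLH family, whereas myogenin is low and rises after denervation or during repair. In whole muscle, fewer cells of a type and less RNA per cell cannot be told apart.

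Of the 9 members, 7 differed between the genotypes past the threshold, which was an adjusted p under 0.05 in limma with a fold change above 1.5 (0.585 on the log2 scale). *Myf6*, *Mef2a* and *Mef2c* were higher in C2-/- muscle, about 2-fold each, and *Myod1* and *Mef2d* were lower by about as much. *Myog* and *Myh8* were lower by log2 changes of -3.54 and -2.97. *Six4* and *Pax7* were not past the threshold. The 7 calls and their directions were the same with quantile normalization and with median centring of the libraries. Among all genes, 45.2% were past it, 20.2% as higher and 25.0% as lower, so that a gene taken from the table at large was past it nearly as often as not. These 7 members had C2-/- values that lay wholly above or wholly below the WT values, as did 49.3% of all genes. After a correction for the GC content of the transcripts, 1 of the 9, *Myh8*, was past the threshold, against 20.6% of all genes. That gene was included with its fall known, and none of the transcription factors was past the threshold after the correction.

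Levels are given as log2 CPM, where CPM stands for reads per 1e6 library reads and the libraries had been scaled by TMM by the authors. A log2 change is the C2-/- mean less the WT mean, and its standard error (SE) comes from the limma fit. The WT libraries held 14929214 to 15464499 reads in the table, except for WT replicate 4 with 4683853, and the C2-/- libraries held 2613277 to 4917936. Depth thus followed genotype, and the only WT library at the depth of the C2-/- libraries was WT replicate 4, which is named beside each member below. *Mybpc2* fell from 12.61 ± 0.19 in WT (SD, n = 4) to 0.79 ± 1.12 in C2-/- (SD, n = 3), which matches the label of every library. Fast-fibre markers were abundant in both groups, with a summed level of 162000 to 199000 CPM over 10 genes in WT and 88100 to 112000 CPM in C2-/-. Changes across the table followed the GC content of the transcripts, and a second set of values was therefore computed in which this dependence had been removed from each library (GC-corrected values). Before correction the median change of all genes was -0.14.

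**Figure D1:**
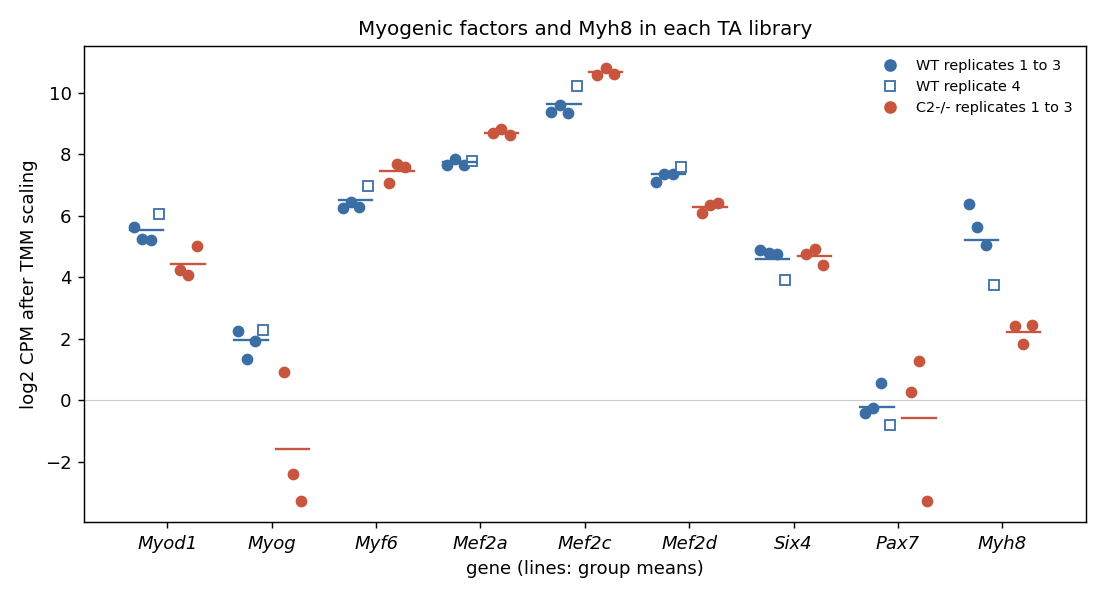
The log2 CPM of each of the 9 genes is plotted for the 4 WT libraries (blue; WT replicate 4 as an open square) and the 3 C2-/- libraries (red), with lines at the group means. The groups are separate in all genes except *Six4* and *Pax7*, and in *Myh8* the WT libraries are spread from 3.73 to 6.40.

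The bHLH regulators did not move together. *Myod1* encodes MyoD, the determination factor that can turn other cells into muscle. It was measured at 5.64, 5.26, 5.20 and 6.05 in WT replicates 1 to 4. It was 4.23, 4.09 and 5.02 in C2-/- replicates 1 to 3. All C2-/- libraries lay below all WT libraries, with C2-/- replicate 3 close under the lowest WT value. *Myod1* fell by 1.09 on the log2 scale (SE 0.29, limma adjusted p = 0.013), from 5.54 ± 0.39 (SD, n = 4) to 4.45 ± 0.50 (SD, n = 3). WT replicate 4 was the highest of the 7 libraries, and the C2-/- mean lay 1.61 below it. In the GC-corrected values the sign turned, with a change of 0.47 (SE 0.37, limma adjusted p = 0.384). The gene lies on the plus strand of chromosome 7 (GRCm38, chr7:46376474-46379099), 1851818 bases from *Mybpc2* on the same chromosome.

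*Myog* encodes myogenin, which drives the step from dividing myoblast to fused fibre. It stood at 2.24, 1.33, 1.93 and 2.29 in the WT libraries, from 72, 37, 58 and 21 reads. In C2-/- replicate 1 it was 0.92, from 5 reads, and in replicates 2 and 3 it had 0 reads, which the log2 scale shows as -2.42 and -3.27. Every WT library thus held the transcript, and it was seen in only 1 C2-/- library. At the mean WT level of 3.93 CPM, the C2-/- libraries would have held 11.4, 10.5 and 19 reads if depth alone set the counts. Counts of 0 were frequent in these libraries, in 247, 1030 and 404 genes of C2-/- replicates 1 to 3. In WT replicate 4 they were seen in 75 genes. The part of this excess in the *Myog* counts was not tested. *Myog* fell by 3.54 on the log2 scale (SE 0.94, limma adjusted p = 0.0123), a size that depends on how a count of 0 is entered. The change was -2.14 with a pseudocount of 2 reads or with quantile normalization, -4.79 without C2-/- replicate 1 and -2.70 without C2-/- replicate 3, past the threshold each time. On the pooled reads *Myog* was 3.76 CPM in WT and 0.48 CPM in C2-/-, a ratio of 0.128 with an exact 95% interval of 0.0411 to 0.304 that covers counting error only. WT replicate 4, the shallowest WT library, had the highest value of the 7. The GC-corrected change was -2.55 (SE 0.89), with a limma adjusted p of 0.0658, and the groups overlapped. *Myog* lies on the plus strand of chromosome 1 (GRCm38, chr1:134289989-134292548).

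*Myf6* encodes Mrf4, the bHLH regulator of mature fibres. Its WT values were 6.27, 6.46, 6.29 and 6.99, and its C2-/- values were 7.08, 7.69 and 7.59. The highest WT library, replicate 4, lay just under the lowest C2-/- library. *Myf6* was higher in C2-/- by 0.95 (SE 0.22, limma adjusted p = 0.0071). From WT replicate 4 the C2-/- mean differed by 0.47, and after the GC correction the difference between the groups was 0.59 (SE 0.21, limma adjusted p = 0.0658). The gene is on the minus strand of chromosome 10 (GRCm38, chr10:107492853-107494737), 6718 bases from *Myf5*, the remaining member of the family. *Myf5*, which marks satellite cells and early myoblasts, ranged from 1 to 20 reads over the WT libraries and from 5 to 18 over the C2-/- ones. It was higher in C2-/- by 1.95 (SE 0.67, limma adjusted p = 0.0354), but not past the threshold without WT replicate 4 or after the GC correction (1.04, limma adjusted p = 0.309).

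The values of *Myf6* and *Myod1* were also set side by side within each library, as a description that follows from the changes already given and adds no separate result. In WT the log2 value of *Myf6* exceeded that of *Myod1* by 0.64, 1.20, 1.09 and 0.94. In C2-/- it did so by 2.86, 3.60 and 2.57, well apart from the WT range. In GC-corrected values the mean difference was 1.79 ± 0.42 (SD, n = 4) in WT and 1.91 ± 0.42 (SD, n = 3) in C2-/-, and the ranges overlapped. *Myod1* has a GC content of 58.9%, and *Myf6* one of 46.4%.

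Of the MEF2 factors, 2 were higher and 1 was lower in deposited values, and none was past the threshold by limma after the GC correction. *Mef2a*, which is widely expressed and active in adult muscle, was 7.67, 7.85, 7.67 and 7.77 in WT and 8.69, 8.82 and 8.63 in C2-/-. The spread within each group was the narrowest of any member (SD 0.0884 in WT and 0.0939 in C2-/-), and the groups lay far apart. *Mef2a* rose by 0.97 (SE 0.14, limma adjusted p = 0.000793), the smallest adjusted p of the 9 genes. WT replicate 4 lay among the other WT libraries. The GC-corrected change was 0.11 (SE 0.14, limma adjusted p = 0.62). *Mef2a* is on the minus strand of chromosome 7 (GRCm38, chr7:67231163-67372858), 22706507 bases from *Mybpc2*, and 302 of its exonic bases overlap *Lysmd4* on the other strand. Whether strand was used in counting is not given in the sources used here.

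*Mef2c*, which controls sarcomere genes in developing and adult fibres, was the most abundant of the 9 genes. It was 9.37, 9.60, 9.35 and 10.24 in WT and 10.59, 10.83 and 10.61 in C2-/-. WT replicate 4 stood closer to the C2-/- libraries than to the other WT libraries but remained below them. *Mef2c* rose by 1.04 (SE 0.23, limma adjusted p = 0.00511), and the C2-/- mean was 0.44 above WT replicate 4. After the GC correction the change was 0.035 (SE 0.17, limma adjusted p = 0.906). The gene occupies chr13:83504034-83667080 on the plus strand (GRCm38).

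*Mef2d*, the paralog whose muscle isoform appears late in differentiation, was 7.09, 7.37, 7.36 and 7.60 in WT and 6.09, 6.34 and 6.43 in C2-/-. It was the only MEF2 member that was lower, with every C2-/- library below every WT library and WT replicate 4 the highest of all. *Mef2d* fell by 1.07 (SE 0.17, limma adjusted p = 0.00131), and the C2-/- mean was -1.32 relative to WT replicate 4. The GC-corrected change was -0.044 (SE 0.24, limma adjusted p = 0.916). It lies at chr3:88142372-88172086 on the plus strand (GRCm38), and 531 exonic bases overlap the antisense gene 1700113A16Rik, whose reads could not be told apart without strand.

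As a description of the same changes, *Mef2c* exceeded *Mef2d* by 2.28 ± 0.27 log2 units in WT (SD, n = 4) and by 4.39 ± 0.18 in C2-/- (SD, n = 3). For *Mef2a* over *Mef2d* the differences were 0.38 ± 0.18 and 2.43 ± 0.20. Within libraries, the distance between the 2 members that rose, *Mef2c* and *Mef2a*, was 1.90 ± 0.38 in WT and 1.97 ± 0.06 in C2-/-. In GC-corrected values *Mef2c* exceeded *Mef2d* by 3.15 ± 0.11 and 3.23 ± 0.41, and *Mef2a* exceeded it by 1.19 ± 0.46 and 1.34 ± 0.45, so that the groups were no longer separate. The GC content was 40.8% in *Mef2c*, 42.0% in *Mef2a* and 55.0% in *Mef2d*.

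**Figure D2:**
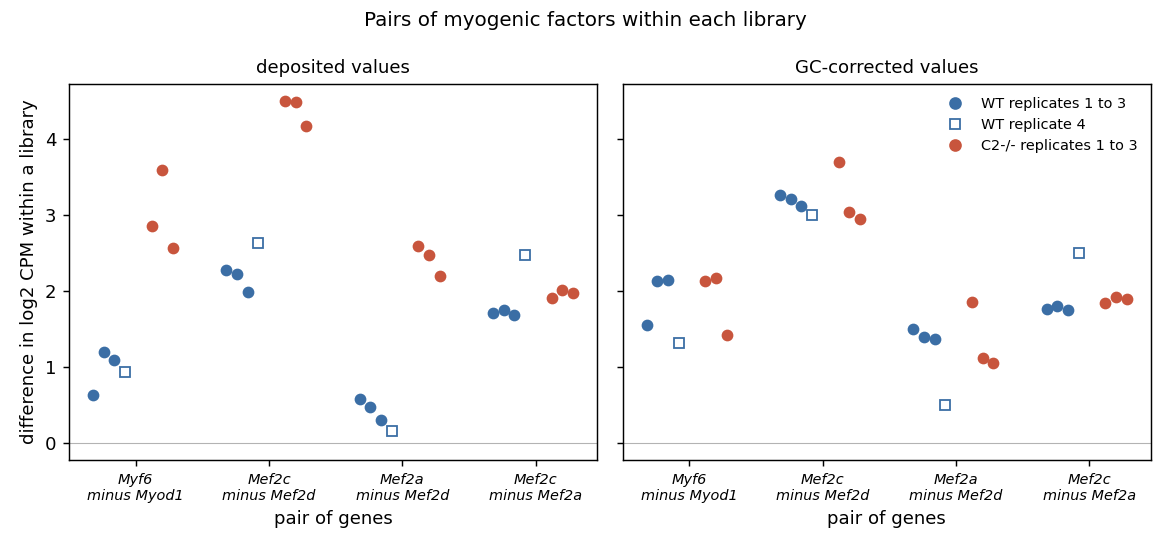
Differences in log2 CPM between pairs of myogenic factors are plotted within each of the 4 WT libraries (blue; WT replicate 4 as an open square) and 3 C2-/- libraries (red), for deposited values (left) and GC-corrected values (right). For *Myf6* minus *Myod1*, *Mef2c* minus *Mef2d* and *Mef2a* minus *Mef2d*, which each join a member that rose with one that fell, the groups are separate on the left and overlap on the right, and *Mef2c* minus *Mef2a* overlaps in both.

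The homeobox and paired-box factors were not past the threshold. *Six4*, which acts upstream of the bHLH regulators in muscle precursors and in fast fibres, was 4.89, 4.78, 4.75 and 3.90 in WT and 4.77, 4.91 and 4.41 in C2-/-. The groups overlapped, and WT replicate 4 lay far below the other WT libraries and below all C2-/- libraries. The log2 difference was 0.12 (SE 0.29, limma adjusted p = 0.751), and it was -0.11 without WT replicate 4 and -0.43 after the GC correction. With WT replicate 4 left out and the GC correction together, *Six4* was past the threshold as lower (-0.70, SE 0.20, limma adjusted p = 0.0323). It lies at chr12:73099609-73113456 on the minus strand (GRCm38).

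*Pax7*, the defining factor of satellite cells, had few reads in every library. Its reads numbered 11, 12, 22 and 2 in WT and 3, 6 and 0 in C2-/-. These correspond to -0.42, -0.26, 0.55 and -0.81 in WT and to 0.27, 1.28 and -3.27 in C2-/-. The highest and the lowest value were both from C2-/- libraries. WT replicate 4 was the lowest WT library, and the C2-/- mean was 0.24 above it and -0.53 relative to the other WT libraries. At the mean WT level of 0.852 CPM the C2-/- libraries would have held 2.47, 2.27 and 4.11 reads, and a level of 3 reads stood at 0.621 to 1.12 CPM in these libraries. The log2 difference was -0.34 (SE 1.05, limma adjusted p = 0.807). On pooled reads the ratio of C2-/- to WT was 0.921, with an exact 95% interval of 0.397 to 1.9 that covers counting error only. With 1 library left out in turn, the log2 difference lay between -1.27 and 1.01, so that the spread between libraries allows differences outside that interval as well. The gene lies at chr4:139737062-139833528 on the minus strand (GRCm38).

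*Myh8*, set beside these factors as a gene of developing and regenerating fibres, was 6.40, 5.64, 5.05 and 3.73 in WT and 2.41, 1.83 and 2.46 in C2-/-. It was the most variable member among the WT libraries, from 58 reads in WT replicate 4 to 1293 in WT replicate 1, whereas the C2-/- libraries held 15, 9 and 26 reads. At the mean WT level of 45.1 CPM they would have held 131, 120 and 218. All C2-/- libraries lay below all WT libraries, including WT replicate 4, which stood between the groups. *Myh8* fell by 2.97 (SE 0.53, limma adjusted p = 0.00207), and the C2-/- mean was -1.50 relative to WT replicate 4 and -3.46 relative to the other WT libraries. After the GC correction it remained past the threshold, at -2.23 (SE 0.49, limma adjusted p = 0.0116), with the groups still separate.

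The position of *Myh8* is chr11:67277124-67308634 on the plus strand (GRCm38), within the cluster of skeletal myosin heavy chain genes. Of the 6100 stretches of 50 bases in its transcript, 21.41% occur also in another gene, 720 of them in *Myh2*, 583 in *Myh1* and 568 in *Myh4*. How reads shared by such paralogs were counted is not given in the sources used here, and the level of *Myh8* is uncertain to that extent. For the transcription factors this share was 0, except in *Six4*, where it was 0.74%.

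The sequence before the transcription start is shown for *Myog* and *Myh8*, because they were the members that fell furthest. Promoters from RefSeq (GRCm38.p6) were matched for 7 of the 9 genes, and those of *Myod1* and *Myf6* were not among them. The 150 bases before the RefSeq start are printed 5′ to 3′ for *Myog* (chr1:134289854-134290003, plus strand) and *Myh8* (chr11:67276974-67277123, plus strand). Capitals mark the E-box, CANNTG, and the MEF2 consensus site. The RefSeq start of *Myog* lies 15 bases downstream of the gene start given above, which is from the GENCODE annotation, so that the last 15 bases printed for it are inside the gene by that annotation.
Myog: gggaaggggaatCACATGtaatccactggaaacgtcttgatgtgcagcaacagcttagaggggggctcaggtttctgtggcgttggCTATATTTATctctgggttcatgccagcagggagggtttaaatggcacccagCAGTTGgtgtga
Myh8: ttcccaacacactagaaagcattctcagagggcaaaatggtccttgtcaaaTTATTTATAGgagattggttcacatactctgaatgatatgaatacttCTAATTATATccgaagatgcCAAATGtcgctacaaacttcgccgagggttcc

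In *Myog* the E-boxes begin at positions -138 and -12 relative to the RefSeq start, with a MEF2 match at -64 between them. In *Myh8* the MEF2 matches begin at -99 and -52, followed by an E-box at -32. Both motifs were searched on both strands in windows of 300 bases, from 250 before the start, and no motif overlapped another in these stretches. An E-box was present in the windows of 3 of the 7 members, where a gene counts once if any of its windows holds the motif, and in 75.0% of 27025 RefSeq genes counted alike (72.3% of their 32851 windows). A MEF2 match was present in 4 of the 7 (*Myog*, *Mef2a*, *Mef2c* and *Myh8*) and in 8.8% of all genes (7.7% of windows). Among those 4 genes, *Myog* and *Myh8* were lower and *Mef2a* and *Mef2c* were higher in C2-/-. A match describes the letters only, and binding was not measured.

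**Figure D3:**
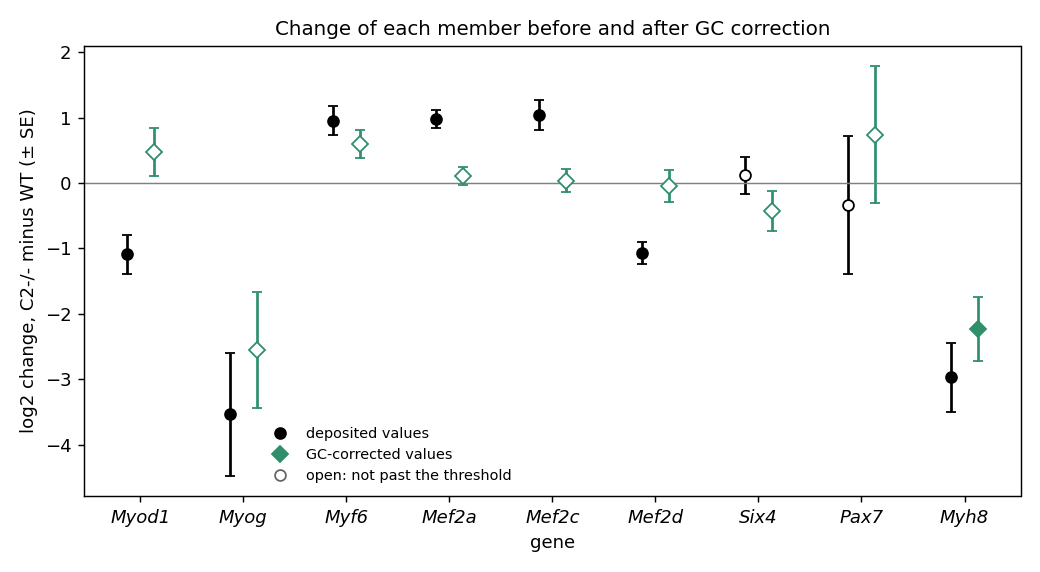
The log2 change (C2-/- minus WT, ± SE) of each of the 9 genes is plotted for deposited values (black circles) and GC-corrected values (green diamonds), with filled symbols for genes past the threshold. The 7 filled circles are *Myod1*, *Myog*, *Myf6*, *Mef2a*, *Mef2c*, *Mef2d* and *Myh8*, and *Myh8* is the only filled diamond.

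The GC content of the members was examined next, because it followed the direction of their changes. The members that rose had 40.8% to 46.4% GC, and those that fell had 53.3% to 58.9%. Genes within 1 percentage point of the GC content of *Mef2a* had a median change of 0.93, and those around *Mef2c* one of 0.99, close to the changes of these members. For *Mef2d* the median of genes with a like GC content was -1.02, against its own change of -1.07. *Myod1* lay above the median of its GC neighbours (-1.56) and *Myf6* above that of its own (0.38). *Myog* and *Myh8* were well below theirs, which were -0.995 and -0.73. In GC-corrected values 20.6% of all genes passed the threshold (12.3% higher, 8.31% lower), and of the 9 members 1 did, *Myh8*, which was lower. WT replicate 4 bears on this count, since without it 3 members were past the threshold after the correction, *Myf6* as higher and *Six4* and *Myh8* as lower. The part of GC content in the changes of the members was not tested beyond this correction.

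**Figure D4:**
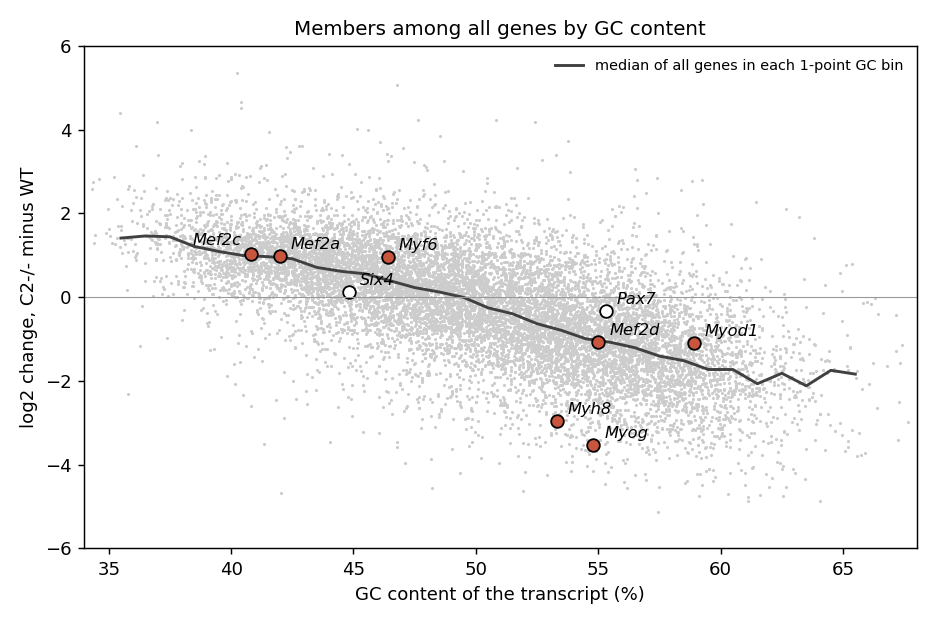
The log2 change of each gene (C2-/- minus WT) is plotted against the GC content of its transcript in percent, with all matched genes in grey, their median in each 1-point bin as a line, and the 9 members as circles (filled where past the threshold). *Mef2a*, *Mef2c* and *Mef2d* lie on or close to the line, *Myog*, *Myh8* and *Six4* lie below it, and *Myod1*, *Myf6* and *Pax7* lie above it. A few genes beyond the axis limits are not shown.

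Levels were compared between the genes per length, as CPM per kilobase of transcript. The order of the WT medians was *Mef2c* (114), *Myf6* (66.0), *Mef2a* (38.1), *Mef2d* (30.6), *Myod1* (23.6), *Myh8* (6.74), *Six4* (4.00), *Myog* (2.83) and *Pax7* (0.13). Neighbours whose WT ranges overlapped, and whose order is therefore not fixed by these libraries, were *Mef2d* and *Myod1*, *Myh8* and *Six4*, and *Six4* and *Myog*. *Myf6* was the bHLH regulator with the highest level in both genotypes. In C2-/- the first 5 places were held by the same genes in the same order, at 249, 152, 74.4, 15.0 and 9.98 CPM per kilobase in the median library, although the ranges of the last pair, *Mef2d* and *Myod1*, overlapped here too. *Six4* (3.99) then stood above *Myh8* (0.839), and their C2-/- ranges did not overlap. The C2-/- ranges of *Pax7* (0 to 0.384) and *Myog* (0 to 1.15) overlapped, so that their order is not fixed by these libraries.

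Other genes of the myogenic network were counted in 10 lists, of which the counts were also taken in GC-corrected values and without WT replicate 4 after the data were seen. In these lists 40 of 88 tested genes (45.5%) were past the threshold, close to the 45.2% of all genes, and 0 of the 40 turned sign with quantile normalization or median centring, although 4 and 2 were then no longer past it (*Ncoa2*, *Tbx15*, *Fgfr4* and *Mcm2*, and *Myl6b* and *Mcm2*). Of the 40, 18 were higher and 22 lower, whereas in GC-corrected values 22 of the 88 passed (16 higher, 6 lower), or 25% against 20.6% of all genes. The counts of each list stand beside shares of 20.2% higher and 25.0% lower among all genes. In GC-corrected values these shares were 12.3% and 8.31%. Of 7 homeobox relatives of *Six4* and their *Eya* cofactors, 2 were higher and 1 lower (median change -0.01). *Eya4* (1.19) and *Eya1* (0.72) were higher and *Eya3* (-0.90) was lower. Of the 3 E protein partners, *Tcf4* was higher (1.07, limma adjusted p = 0.000915), and the median change was 0.57. *Tcf3*, named after its values were seen, differed by -2.19 with every C2-/- library below every WT library, but was not past the threshold (limma adjusted p = 0.0559), and voom called 1 partner lower. After the GC correction none of these 4 genes was past the threshold by limma, and the relative *Six2* was (2.50, named after its values were seen).

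Inhibitors of myogenic bHLH factors, which bind E proteins or occupy their sites, were higher in 3 of 9 measured genes and lower in 0, by limma and by voom (4 higher with voom), with 1 gene lower at an unadjusted p under 0.05. The median change was 0.88. *Twist1*, a repressor of MyoD (2 to 28 reads in WT libraries, 8 to 39 in C2-/- libraries), was higher by 2.22 (SE 0.70, limma adjusted p = 0.026). *Hes1*, a Notch target, was higher by 1.45 (SE 0.46, limma adjusted p = 0.0272), and *Bhlhe41* by 1.08 (SE 0.29, limma adjusted p = 0.0127). These 3 were also past the threshold in GC-corrected values, at 3.82, 1.74 and 0.87, together with *Id3* (1.28), named after its values were seen. Without WT replicate 4 the counts became 2 higher and 1 lower, and *Hes1* was no longer past the threshold. Twist and Id genes are also expressed in connective-tissue cells, whose markers were higher, with 4 of 5 fibro-adipogenic genes past the threshold and a summed level of 1240 to 1400 CPM in C2-/- against 368 to 536 CPM in WT. Of these 5 genes 2 were past it in GC-corrected values and 3 without WT replicate 4. No fibro-adipogenic marker was at 0 reads in any library, and their part in the result was not tested.

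Among 12 repressors and coactivators of MEF2, 2 were higher and 5 lower, with a median change of -0.60. The class II histone deacetylase gene *Hdac5*, which encodes a MEF2 repressor, changed by -2.13 (SE 0.38, limma adjusted p = 0.002). *Mamstr*, a coactivator of MEF2 in skeletal muscle (-1.52), and *Carm1*, an arginine methyltransferase (-1.07), were lower too. The acetyltransferase gene *Kat2b* (0.86) and the nuclear receptor coactivator gene *Ncoa2* (0.59) were higher. In GC-corrected values 0 of the 12 were past the threshold by limma, 5 had an unadjusted p under 0.05, and the median was 0.37.

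Of 14 other muscle transcription regulators, 2 were higher and 3 lower (median -0.01), and without WT replicate 4 the counts were 2 and 5. In GC-corrected values 4 were higher and 1 lower (median 0.40), and *Nfix* (1.39), *Nfic* (1.32) and *Sox6* (-0.63), named after their values were seen, were past the threshold only there. *Vgll2*, a muscle cofactor of TEAD proteins, was higher by 0.94 (SE 0.23, limma adjusted p = 0.00811) and by 2.72 after the GC correction. *Tbx15*, a factor of fast fibres, was higher by 0.87, but its groups overlapped and it was not past the threshold after the GC correction (0.76, limma adjusted p = 0.0698). *Srf*, which controls actin genes, was lower (-1.30, SE 0.16, limma adjusted p = 0.000407) but higher after the GC correction (0.74). *Mkl1*, a coactivator of Srf (-1.18), and *Tead4* (-2.55, with 6, 1 and 1 reads in C2-/-) were lower and were not past the threshold after it.

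The muscle genes known as targets of these factors were lower in 6 of 15 and higher in 2 of 15. Among all genes 25.0% were lower and 20.2% higher. The median change of the list was -1.01. Fast-fibre markers, several of which are on this list, were lower in 5 of 10 by limma and higher in 0 by limma, by voom and at an unadjusted p under 0.05. In GC-corrected values 1 of the 10 was higher and 2 were lower, and the part of these markers was not tested. *Rapsn*, which clusters acetylcholine receptors at the synapse, changed most (-4.44, SE 0.96, limma adjusted p = 0.00495), with at least 48 reads in each WT library and 17, 0 and 6 in C2-/-. *Acta1*, skeletal α-actin, changed by -2.02 and *Chrne*, the adult ε subunit of the acetylcholine receptor, by -2.01. *Chrnb1*, its β subunit, was higher by 1.29 (SE 0.20, limma adjusted p = 0.00103), and the cell cycle inhibitor gene *Cdkn1a* by 0.82. After the GC correction 3 were higher and 3 lower (median 0.14). *Rapsn* (-2.92), *Chrnb1* (1.62) and *Cdkn1a* (1.75) were still past the threshold, and *Acta1* (-0.70) and *Chrne* (-1.30) were not.

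Of 12 developmental and regenerating fibre genes, the list that stands nearest to *Myh8*, 1 was higher and 2 were lower, with a median change of 0.05. *Vim*, vimentin, was higher (1.31, SE 0.21, limma adjusted p = 0.00132), also after the GC correction (2.16), and it is expressed in connective-tissue cells as well. *Myl6b* (-2.34, with 5, 0 and 12 reads in C2-/-) and *Nes*, nestin (-0.997), were lower but not past the threshold after the correction. In GC-corrected values 2 genes of the list were higher, *Vim* and *Igf2* (1.80, limma adjusted p = 0.00576, named after its values were seen), and the median was 1.03. The embryonic myosin *Myh3*, named here outside the rule for named genes and after its values were seen, had 38, 14, 46 and 0 reads in WT and 5, 3 and 11 in C2-/-. Its log2 difference was 0.92 (SE 1.06, limma adjusted p = 0.493).

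Satellite cell genes were higher in 2 of 13 and lower in 4 of 13 (median change -0.14). Besides *Myf5*, *Chodl*, a lectin of quiescent satellite cells and motor neurons, was higher by 1.61, but not past the threshold after the GC correction (0.86, limma adjusted p = 0.118). *Itga7*, the α7 integrin of satellite cells and fibres, changed by -2.71 (SE 0.33, limma adjusted p = 0.000414) and by -1.29 after the GC correction. *Fgfr4* (-2.56, with 1, 0 and 0 reads in C2-/-) and *Notch3* (-1.13) were lower and did not pass after it, when 1 gene of the list was higher and 2 were lower. Among 5 proliferation genes 3 were higher and 1 lower. *Mki67* (2.25, from 3 to 12 reads in any WT library and 5 to 10 in any C2-/- library), *Ccna2* (2.19) and *Pcna* (0.90) were higher, and *Mcm2* (-1.63) was lower. *Ccna2* was the only one of these past the threshold after the GC correction (1.80, limma adjusted p = 0.0183). Macrophage genes were higher in 2 of 5 (1 of 5 after the GC correction), with a summed level of 46.8 to 68.5 CPM in C2-/- and 18.9 to 36.4 CPM in WT. None was at 0 reads in any library, and their part was not tested.

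**Figure D5:**
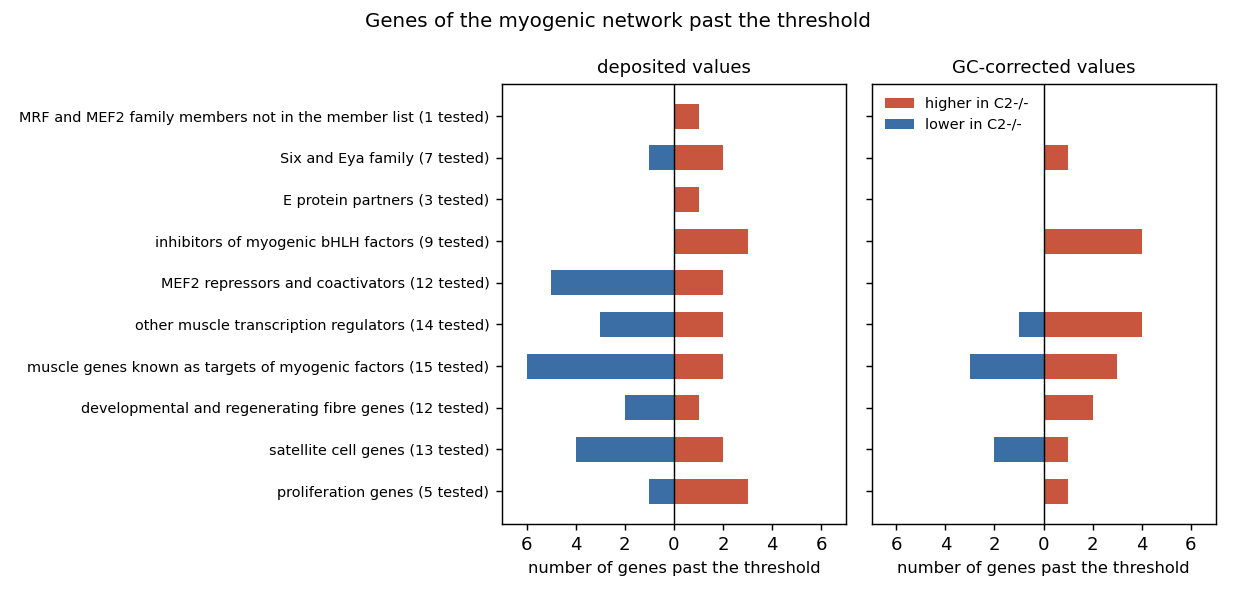
For each of the 10 gene lists of the myogenic network, bars give the number of genes past the threshold as higher (red, right) or lower (blue, left) in C2-/-, in deposited values (left panel) and GC-corrected values (right panel), with the number tested in parentheses. Lower genes are most frequent among targets (6 of 15) and MEF2 repressors and coactivators (5 of 12) on the left, and the latter list has no gene past the threshold on the right. Among all genes in deposited values, 25.0% were lower and 20.2% higher.

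The genes whose log2 values were most like those of 3 members over the 7 libraries were sought by Pearson's r among genes whose mean log2 value was 1 or more. For *Myod1* they were *Uspl1* (0.98), *Ip6k3* (0.98) and *Pcgf2* (0.98). For *Myog* they were *Tut1*, *Apoe* and *Eftud2*, each at 0.99. For *Myh8* they were *Mafg* (0.995), *Slc35c1* (0.989) and *Sort1* (0.986). The libraries share genotype and depth, and 106, 409 and 1020 genes had an r above 0.9 with *Myod1*, *Myog* and *Myh8*, so that these values describe the libraries only.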

How the data were processed

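TA muscle RNA of 4 WT and 3 C2-/- mice was selected on oligo(dT) beads and sequenced as DNA nanoballs. The authors aligned reads to GRCm38.p6 with HISAT, counted them per gene with featureCounts 1.5.2, scaled them by edgeR's TMM factors and deposited log2 values for 12239 genes. Each deposited log2 value was the log2 of whole reads plus 0.5, per 1e6 of the effective library size, and reads were recovered from it (largest departure from a whole number 2.2e-08, 100% of values within 0.001 reads). A second deposited table, of the authors' own fold changes, p-values and scores, was not used. Depth was 2613277 to 15464499 reads per library, and 3 reads stood at 0.195 to 1.12 CPM. Intervals and such floors cover counting error only, because PCR copies are not independent molecules. The libraries of every pair differed by more than sampling noise (chi-square per degree of freedom at least 9.1 over 21 pairs).

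Groups were taken from the sample titles. Genes were tested with limma 3.58.1 in R 4.3.3 (lmFit, then eBayes with trend, genotype as the only term, two-sided), with Benjamini-Hochberg adjustment over all 12239 genes. Fold changes of genes with few reads depend on the 0.5 added. The members and gene lists were chosen with earlier results of these data known. Named genes were the 9 members, up to 3 genes past the threshold per list and direction with the largest change, the 3 genes most like *Myod1*, *Myog* and *Myh8*, and *Mybpc2*. GC content, length and positions came from GENCODE gene models of GRCm38 (12168 genes matched, 350 by an older symbol). To correct for GC content, its trend in each library (natural spline, 5 degrees of freedom) was exchanged for the mean trend of the libraries. Alternatives covered voom, weights, scaling, the added count, filters, GC content and length, a replicate block, thinning, thresholds and leaving out each library. The fit was tested on simulated data.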

Additional observations from a re-analysis of the deposited data

Results flagged for a closer look

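One value of the 9 genes stood apart within its group. The *Six4* value of WT replicate 4 was 3.898, whereas the other WT libraries ranged from 4.75 to 4.89, and its gap to the nearest of them was 0.867 of the WT range, above Dixon's 95% critical value for 4 samples. It was singled out among 9 genes tested in the WT group. Chance gives about 1 in 20 for each gene, and more for the 9 genes together. C2-/-, with only 3 libraries, was not examined in this way. The same library had the highest WT value of *Myod1*, *Myog*, *Myf6*, *Mef2c* and *Mef2d* and the lowest of *Pax7* and *Myh8*.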

How the results depend on the processing

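Over 23 alternatives, *Myh8* was lower and past the threshold in all, from -3.46 to -2.19 (limma adjusted p 4.11e-05 to 0.0186). The count of 7 members past the threshold was the same in all 7 leave-one-out fits, and it was 5 to 7 in 12 of the 16 others. It was 1 with the GC correction and with the GC and length correction, 2 with the replicate block and the GC correction together, and 3 with the GC correction without WT replicate 4. In that order the changes were 0.47, 0.45, 0.77 and 0.77 for *Myod1*, -2.55, -2.66, -2.35 and -2.35 for *Myog*, 0.11, 0.13, 0.043 and 0.043 for *Mef2a*, 0.035, 0.043, 0.15 and 0.15 for *Mef2c*, and -0.044, 0.014, 0.12 and 0.12 for *Mef2d*. None of these was past the threshold, and the cause was not tested. *Myf6* was at 0.59 and 0.40, not past it, under the first 2 of these settings. Replicate number 4 occurs only in WT, so the replicate block takes WT replicate 4 out of the difference between the genotypes. Its changes therefore equal those without WT replicate 4, and the settings are not independent alternatives. With an adjusted p under 0.01, *Myod1* (-1.09) and *Myog* (-3.54) were no longer past the threshold. *Myog* and *Pax7* were not tested with a minimum mean log2 value of 1 or 3, where 6 of 7 members were past the threshold.

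*Six4*, not past the threshold, turned sign with voom (-0.021), library quality weights (-0.13), the replicate block (-0.11), the GC correction (-0.43), the GC and length correction (-0.43), and the GC correction with the block or without WT replicate 4 (-0.70 in both, limma adjusted p 0.0634 and 0.0323). Over the fits without 1 library it ranged from -0.11 to 0.26. *Pax7* turned sign with quantile normalization (1.15), a pseudocount of 2 reads (0.32), the GC correction (0.74), the GC and length correction (0.79), and the GC correction with the block or without WT replicate 4 (0.63 in both). Without 1 library it ranged from -1.27 to 1.01, the latter without C2-/- replicate 3.

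The replicate numbers did not pair the samples. The deviations of same-numbered libraries correlated at 0.0452, -0.0917 and -0.0415, and not every library correlated best with its own number. With the replicate block the count of members stayed at 7 and that of all genes went from 5528 to 5901. Median centring moved the median change of all genes from -0.14 to 0.02 and the genes past the threshold from 2473 higher and 3055 lower to 3040 and 2594, with the same count of members. Quantile normalization moved that median to 0.0506 and the genes to 2883 higher and 2760 lower. Depth limits *Pax7*, which had 0 to 6 reads in the C2-/- libraries.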

Other observations

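*Myod1* and *Mef2a* share chromosome 7 with *Mybpc2*. Within 1 Mb of *Myod1*, 4 of the 40 genes tested were higher and 23 were lower (median log2 change -1.42), against 20.2% and 25.0% of all genes. After the GC correction 3 of these neighbours were higher and 3 lower. Genes of other cell types in the muscle were past the threshold as higher in 1 of 5 endothelial genes (*Emcn*), 1 of 3 adipocyte genes (*Fabp4*), 1 of 4 tendon genes (*Tnmd*) and, by limma, by voom and at an unadjusted p under 0.05, 0 of 4 Schwann cell genes. They were lower in 1 of 5 smooth muscle genes (*Tagln*), 1 of 4 tendon genes (*Scx*), 5 of 10 fast-fibre genes and the only red blood cell gene measured (*Alas2*). After the GC correction none of the 6 genes named here was past the threshold by limma, whereas *Plin1* of the adipocyte list and *Myh11* of the smooth muscle list were, as higher. Of the fast-fibre genes 1 was then higher and 2 were lower.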
